A study of Homo sapiens with 24 samples.

Results

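The replication-dependent histone genes are the genes whose symbols start with HIST1H, HIST2H, HIST3H or HIST4H in the deposited tables, and 73 of the 26475 genes listed there met that rule. They comprise 6 genes of the linker histone H1 and 18, 20, 14 and 15 genes of the core histones H2A, H2B, H3 and H4, with 56 genes in the HIST1 cluster of chromosome 6 and 13 in the HIST2 cluster of chromosome 1. Of the 73, 3 are pseudogenes (HIST1H2APS1, HIST2H2BA and HIST2H2BC). RNA-seq was performed in 786-M1A and OS-LM1 cells, metastatic derivatives of the VHL-mutant clear cell renal cell carcinoma (ccRCC) lines 786-O and OS-RC2, with 4 replicates in each of 6 groups. In each line the cells carried shPAX8-1 or shPAX8-2, a pair of RNA interference constructs against PAX8, or sgNTC18, a non-targeting guide RNA. The lines are established and were grown in culture, and nothing states that the 4 replicates of a group were separate cultures, so p-values measure the spread between these samples, which may be technical.

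The guide is a different type of construct from the hairpins, and libraries with a control hairpin were not analysed here. PAX8 depletion therefore cannot be told apart from the type of construct, or from a separate experiment, when shPAX8 is set against sgNTC18. The comparison of shPAX8-1 with shPAX8-2 does not have that limit, and both kinds of comparison are given below.

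Replication-dependent histones package newly made DNA, and their genes are switched on together as cells enter S phase. Unlike other animal mRNAs, theirs normally lack a poly(A) tail and end instead in a conserved stem-loop that is bound by SLBP, the stem-loop-binding protein, and is cut with the help of the U7 small nuclear ribonucleoprotein. Some members also make polyadenylated transcripts from a site further downstream, most of all in cells that differentiate or leave the cell cycle. The libraries were made from RNA captured with oligo-dT, so a count here reads the tailed transcripts of a gene and whatever untailed RNA was carried through. A list of 7 members known for polyadenylated transcripts (HIST1H1C, HIST1H2AC, HIST1H2BC, HIST1H2BD, HIST1H2BJ, HIST1H2BK and HIST2H2BE, below called the polyadenylated list) is used throughout beside the other 66. The list was written by hand from general knowledge, with earlier results of these data known. A difference between the list and the other members is therefore descriptive and not an independent test.

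The stem-loops are shown because they are the feature by which these transcripts differ from other mRNAs. The human genome (hg38) was searched on the strand of each gene for GGNNNTTTTNANNNCC with 6 base pairs in the stem (G-T pairs allowed), for the 65 members with a RefSeq promoter entry in GRCh38.p14. The 16 bases of the stem and loop are in capitals, with 5 bases on either side, and the coordinates are those of the capitals.
HIST1H2BK, chr6:27146366-27146381, minus strand: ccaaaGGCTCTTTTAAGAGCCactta
HIST1H2BC, chr6:26123472-26123487, minus strand: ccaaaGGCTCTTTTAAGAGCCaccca
HIST1H2BD, chr6:26158587-26158602, plus strand: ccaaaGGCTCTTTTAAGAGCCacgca
HIST1H2BJ, chr6:27132321-27132336, minus strand: ctaacGGCTCTTTTAAGAGCCaccca
HIST1H1C, chr6:26055744-26055759, minus strand: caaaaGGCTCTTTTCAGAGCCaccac
HIST1H2AC, chr6:26124669-26124684, plus strand: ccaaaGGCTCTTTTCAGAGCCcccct
HIST2H2BE, chr1:149886188-149886203, minus strand: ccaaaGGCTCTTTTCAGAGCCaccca
HIST2H2AA3, chr1:149842223-149842238, minus strand: caaaaGGCTCTTTTCAGAGCCaccca
HIST1H2AL, chr6:27865778-27865793, plus strand: acaacGGCTCTTTTCAGAGCCaccta
HIST1H1B, chr6:27866797-27866812, minus strand: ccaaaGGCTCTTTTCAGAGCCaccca
HIST2H2AC, chr1:149887391-149887406, plus strand: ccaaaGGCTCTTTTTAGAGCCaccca
HIST1H4H, chr6:26285131-26285146, minus strand: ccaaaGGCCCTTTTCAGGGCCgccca

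A match was found for 62 of the 65 members, and these letters were not found for HIST1H2BI, HIST1H3E and HIST1H4L. The core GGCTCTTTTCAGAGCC was shared by 37 members. The core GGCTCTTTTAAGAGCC was found in 10 members, among them 4 of the 7 on the polyadenylated list, all of them H2B genes, while the other 3 of the list carried the common core. All 12 matches in H4 genes had the stem GGCCC, which none of the 50 matches in the other classes had. A stem-loop therefore lies in every member of the polyadenylated list. The RefSeq gene ended within 20 bases of the stem-loop for 56 members and more than 100 bases past it for 6, namely HIST1H2BC, HIST1H2BD, HIST1H2BK, HIST2H2BE, HIST2H2BF and HIST2H4B. In the deposited tables, the transcript models of HIST1H2BD (726 bases), HIST1H2BK (839 bases), HIST1H3D (921 bases) and HIST2H2BE (2223 bases) were longer than those of the 63 other core histone members, which ran from 354 to 582 bases.

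The histone genes were a small part of every library. The deposited values are RSEM expected counts, which summed to between 11634419 and 52059375 per library, and the 73 members took 1296 to 10666 of these. Levels of a gene in each library are given below as CPM, counts scaled to library size with TMM factors, and 3 counts in a library, the limit that a count of 0 allows, amounted to 0.0626 to 0.249 CPM (counting error only). HIST1H2AA, HIST1H2BA, HIST1H2APS1, HIST1H4F and HIST1H4G had no count in any of the 24 libraries. HIST1H2AA and HIST1H2BA encode testis histones. HIST2H2AA3 and HIST2H2AA4, HIST2H3A and HIST2H3C, and HIST2H4A and HIST2H4B had equal counts in every library, since their reads were shared out between a duplicated pair, and each pair is counted once where stated. The coding regions of the other members are also alike, and how reads were split among them is uncertain.

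As a check of the libraries, PAX8, the renal lineage transcription factor that the hairpins target, had in 786-M1A a mean level of 341 ± 44.7 CPM (SD, n = 4) with sgNTC18, 42.4 ± 2.36 with shPAX8-2 and 18.7 ± 4.31 with shPAX8-1. For OS-LM1 the means were 260 ± 14.5, 79.2 ± 13.7 and 78.2 ± 13.1 CPM. Of 6 genes listed as markers of ccRCC or renal epithelium, PAX8, EPAS1, CDH6 and VIM were expressed in every library of both lines. CA9 and NDUFA4L2 reached at most 0.162 and 0.647 CPM in 786-M1A, and 45.3 and 31.4 CPM in OS-LM1. The leukocyte gene PTPRC reached at most 0.317 CPM and CD3E had no count. The summed level of 9 genes that mark leukocytes, endothelium or fibroblasts, most of it CD68, PDGFRB and COL1A1, ranged from 394 to 1260 CPM in 786-M1A and from 93.6 to 469 CPM in OS-LM1, where all shPAX8 libraries were above all sgNTC18 libraries and 4 of the 5 genes tested were higher with either hairpin. Its part in the results below was not tested. In 786-M1A, shPAX8-1 replicates 1 and 2 stood apart from replicates 3 and 4, and values on either pair alone are given where they differ. The low-count filter kept 26 members in 786-M1A and 48 in OS-LM1.

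Per unit of transcript length, HIST1H2BK, which encodes an H2B protein, had the highest mean over the 24 libraries, at 140 TPM (a scale per transcript length and library size). HIST1H1C, which encodes the linker histone H1.2, followed at 59.1 TPM, and HIST1H2BC at 30.2 and HIST1H2BD at 27.4, both H2B genes. The order differed between groups: in all 4 libraries of OS-LM1 with sgNTC18 the H2B gene HIST2H2BF, at 40.2 to 51.7 TPM, was above HIST1H2BK, at no more than 31.7 TPM. HIST1H2BC was at 39.0 to 118 TPM in OS-LM1 with shPAX8 and at 4.31 to 11.5 TPM in the other groups. HIST2H2AA3 and HIST2H2AA4 averaged 25.3 TPM each. The polyadenylated list made up 54.1 to 60.6% of histone CPM in the 4 libraries of 786-M1A with sgNTC18 and 69.9 to 80.6% in the 8 libraries of that line with shPAX8. In OS-LM1 the share was 30.6 to 38.3% with sgNTC18 and 69.3 to 82.1% with shPAX8. No library with shPAX8 overlapped the libraries of its line with sgNTC18.

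The summed CPM of the members thus moved differently in the list and outside it. In 786-M1A, the polyadenylated list summed to 40.3 ± 1.88 CPM with sgNTC18, 101 ± 6.15 with shPAX8-2 and 117 ± 11.6 with shPAX8-1 (SD, n = 4 each). In OS-LM1 the sums were 40.8 ± 3.95, 162 ± 27.0 and 291 ± 48.7 CPM. The ranges of the 4 replicates did not overlap between sgNTC18 and either hairpin in either line. In OS-LM1 they did not overlap between the hairpins either, whereas in 786-M1A those of the hairpins did. The other 66 members summed to 31.0 ± 4.44, 36.4 ± 6.87 and 38.8 ± 11.7 CPM in 786-M1A with overlapping ranges, and to 75.7 ± 5.65, 54.7 ± 6.82 and 68.4 ± 7.65 CPM in OS-LM1, where only shPAX8-2 lay wholly below sgNTC18. In bulk RNA, fewer cells in S phase and less histone RNA per cell cannot be told apart.

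**Figure D1:**
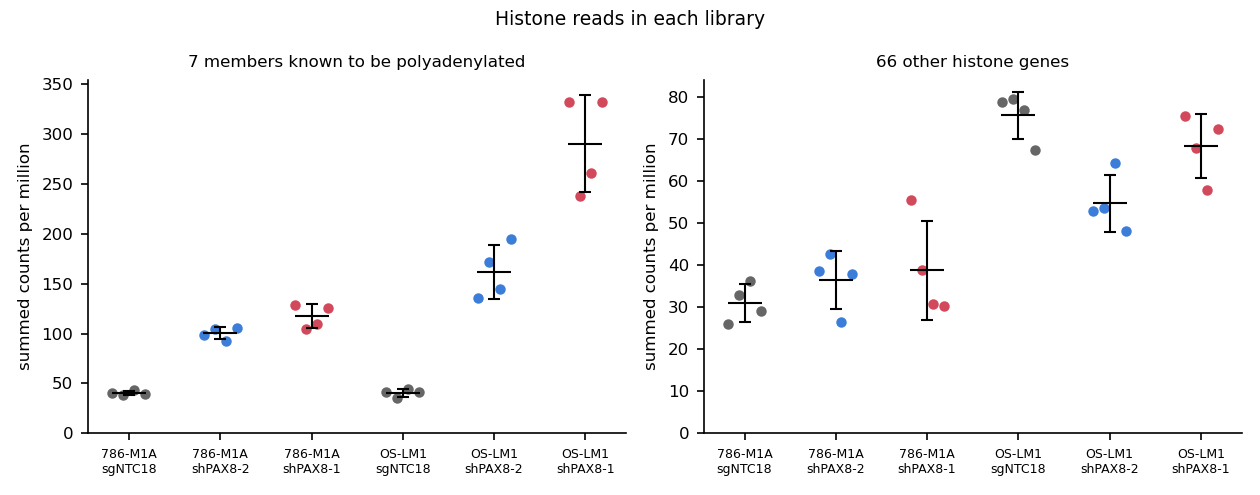
Summed CPM of the 7 members of the polyadenylated list (left) and of the other 66 histone genes (right), 1 point per library, with the mean and SD of 4 replicates in black. On the left all shPAX8 libraries lie above the sgNTC18 libraries of their line, and on the right most groups of a line overlap.

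The first question is whether the hairpins differ from each other. In OS-LM1, 10 of the 48 tested members were higher with shPAX8-1 than with shPAX8-2 and 2 were lower (edgeR, adjusted p under 0.05), where 12.4% of all genes tested were higher and 16.7% lower, 29.1% in either direction. With each duplicated pair counted once these were 9 and 2 of 45. Of the 10 that were higher, 6 were on the polyadenylated list, and the median log2 fold change was 1.11 for the 7 genes of the list and -0.14 for the 41 others tested, against -0.03 for all genes.

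HIST1H1C, the H1.2 gene, showed the largest such difference. Its level was 67.4, 49.3, 50.5 and 64.0 CPM with shPAX8-1 and 20.2, 18.2, 20.9 and 23.7 CPM with shPAX8-2. The groups did not overlap, and the log2 fold change was 1.44 ± 0.12 (SE, adjusted p = 4.6e-08). The study had also chosen HIST1H1C for a gene list of its own, so that it is not independent evidence. HIST2H2BE, an H2B gene of chromosome 1 with a long annotated 3′ end, stood at 23.8, 19.6, 20.4 and 21.9 CPM with shPAX8-1. With shPAX8-2 it stood at 8.75, 9.13, 9.26 and 9.13 CPM. These groups were also apart, by 1.21 ± 0.12 on the log2 scale (adjusted p = 2.7e-07).

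HIST1H2BC was at 27.1, 19.7, 22.4 and 29.0 CPM with shPAX8-1 and at 8.61, 10.9, 10.1 and 12.8 CPM with shPAX8-2. HIST1H2AC, the H2A gene that starts 245 bases away on the opposite strand, was at 15.2, 10.8, 15.7 and 16.4 CPM and at 6.23, 5.61, 7.16 and 7.20 CPM. Both were higher with shPAX8-1 in all 4 libraries, by 1.18 ± 0.14 and 1.11 ± 0.14 on the log2 scale. HIST1H2BD was higher by 1.11 ± 0.18 and the H2A pair HIST2H2AA3 and HIST2H2AA4 by 0.77 ± 0.14. HIST1H2BK differed less, with 171, 113, 125 and 172 CPM against 82.7, 112, 87.3 and 126 CPM, and the groups overlapped. Its difference of 0.48 ± 0.15 (adjusted p = 0.02) passed the test but lost the call without shPAX8-1 replicate 1 or 4 (0.39 each) or without shPAX8-2 replicate 1 (0.39) or 3 (0.44).

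The other members called in this comparison were HIST1H4H, an H4 gene (1.03 ± 0.31), HIST1H3D, an H3 gene whose long model overlaps HIST1H2AD on the same strand (0.78 ± 0.27), and the lower HIST1H1D, the H1.3 gene (-1.65 ± 0.47), and HIST1H2AL, an H2A gene (-1.28 ± 0.41). HIST1H4H lost the call without shPAX8-2 replicate 3 (0.95) or 4 (0.94) and HIST1H1D without shPAX8-2 replicate 3 (-1.36). HIST1H3D lost it without shPAX8-1 replicate 1 (0.64) or 4 (0.80) or shPAX8-2 replicate 1 (0.66) or 4 (0.76), and HIST1H2AL without shPAX8-1 replicate 2 (-1.22), 3 (-1.10) or 4 (-1.20) or shPAX8-2 replicate 2 (-1.13) or 3 (-1.16). HIST1H2BJ, the remaining gene of the polyadenylated list, gave 0.27 ± 0.28 and was not called.

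In 786-M1A, 1 of 26 tested members was higher with shPAX8-1 than with shPAX8-2 and none was lower, where 24.2% of all genes were higher and 22.9% lower, 47.1% in either direction. The gene was HIST2H2BE, at 9.67, 10.6, 12.2 and 12.4 CPM with shPAX8-1 and 5.52, 5.34, 5.88 and 5.07 CPM with shPAX8-2. Its groups were apart by 1.04 ± 0.15 on the log2 scale (adjusted p = 0.0001), a difference called in every alternative run. HIST1H1C gave 0.24 ± 0.14, HIST1H2BK 0.18 ± 0.10, HIST1H2BC -0.42 ± 0.28 and HIST1H2AC -0.40 ± 0.22, none of them called. The count depended on the processing, and the shares of all genes in the alternative runs named next are not given here. With each library's trend on GC content removed, 6 members were higher and 1 lower. With shPAX8-1 replicates 3 and 4 alone, 2 were higher and 3 lower, and with replicates 1 and 2 alone 2 were higher and 0 lower. The number of members called was 4 without shPAX8-1 replicate 1 and 3 without shPAX8-2 replicate 1.

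Tested as an interaction, the difference between the hairpins was larger in OS-LM1 than in 786-M1A for 6 of 41 members and smaller for none. Of all genes, 12.7% and 14.5% were called in those directions, 27.2% in all. With each duplicated pair counted once it was larger for 5 of 38 members, a share close to that of all genes. The 6 were HIST1H2BC (1.63 ± 0.29), HIST1H2AC (1.54 ± 0.26), HIST1H1C (1.24 ± 0.19), HIST1H2BD (0.89 ± 0.26) and the pair HIST2H4A and HIST2H4B (1.39 ± 0.52). The pair encodes H4 and lost the call in 17 alternatives, at 1.23 to 1.45, among them the fits without single libraries of every shPAX8 group. With the GC trend removed, the difference was larger in OS-LM1 for 5 members and smaller for 1, and the share of all genes in that run is not given here. For PAX8 itself the hairpins differed by -0.05 ± 0.12 on the log2 scale in OS-LM1, which was not called (adjusted p = 0.80), and by -1.18 ± 0.15 in 786-M1A (adjusted p = 4e-05).

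**Figure D2:**
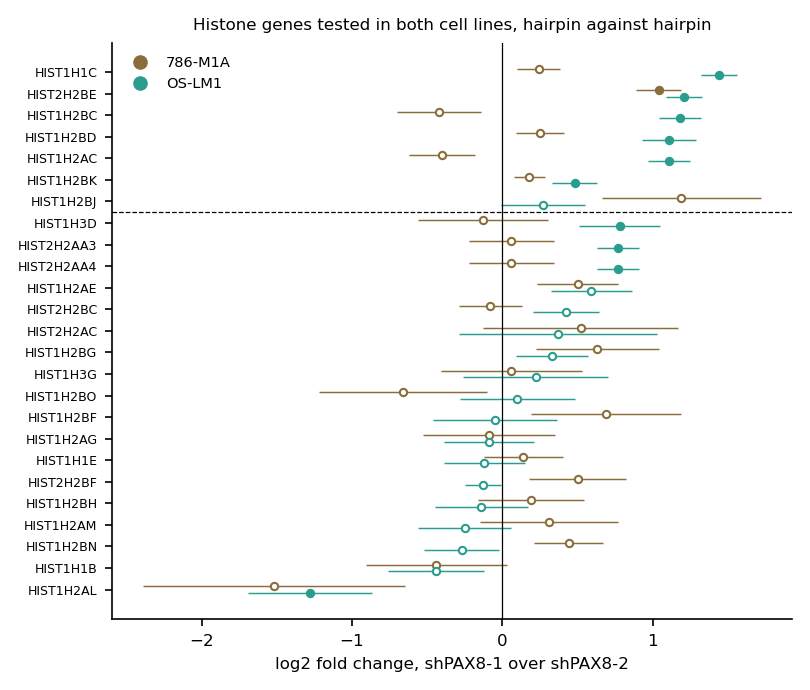
Log2 fold change of shPAX8-1 over shPAX8-2 with its standard error for the histone genes tested in both lines, with 786-M1A in brown and OS-LM1 in green, and filled points passing the test. The polyadenylated list lies above the dashed line, where 6 of 7 points of OS-LM1 are filled on the positive side and 1 of 7 points of 786-M1A.

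Against sgNTC18, the histone genes of OS-LM1 split. With shPAX8-1, 11 of 48 tested members were higher and 26 lower, where 35.6% of all genes were higher and 35.8% lower, 71.4% in either direction. With shPAX8-2, 8 were higher and 22 lower, where 34.3% and 34.1% of all genes were called, 68.4% in either direction. Of the polyadenylated list, 6 of 7 were higher and 0 lower with either hairpin, with a median log2 fold change of 2.35 with shPAX8-1 and 0.91 with shPAX8-2. Of the other members, 5 of 41 were higher and 26 lower with shPAX8-1, and 2 and 22 with shPAX8-2, at medians of -1.33 and -0.91, and the median of all genes was -0.01 in both.

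A filter on low counts bears on these numbers. Of the 48 members, 15 would not have passed it without the sgNTC18 libraries, 4 of which (HIST1H2AD, HIST1H2BB, HIST1H3F and HIST1H4L) also needed the libraries of a hairpin. For the members that passed only because they were high with sgNTC18, a lower level with shPAX8 was selected for. The medians of the other members above include all 15, and were not recomputed without them. Of the 15, 13 were called lower with shPAX8-1 and 6 with shPAX8-2. Among the other 33 members, 11 were higher and 13 lower with shPAX8-1, where 35.6% of all genes were higher and 35.8% lower. With shPAX8-2, 8 of the 33 were higher and 16 lower, where 34.3% and 34.1% of all genes were called. For shPAX8-1 the split of these 33 was thus near that of all genes. Without a filter beyond 1 count, 65 members were tested, of which 10 were higher and 27 lower with shPAX8-1, and 8 and 24 with shPAX8-2. The shares of all genes called without the filter are not given here, so these counts cannot be set against them.

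HIST1H2BK rose most. It was at 13.9, 11.1, 14.4 and 14.5 CPM with sgNTC18, beside the hairpin values above, and the lowest shPAX8 library was above the highest of sgNTC18. The log2 fold change was 3.41 ± 0.16 with shPAX8-1 and 2.93 ± 0.16 with shPAX8-2 (adjusted p = 3e-12 and 2.5e-11). HIST1H2BC was at 2.08, 2.17, 2.70 and 2.41 CPM with sgNTC18 and rose by 3.36 ± 0.16 and 2.19 ± 0.16. HIST1H2BD was at 3.18, 2.58, 4.31 and 3.95 CPM and rose by 2.86 ± 0.20 and 1.75 ± 0.20.

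HIST1H1C was at 13.0, 9.75, 11.5 and 10.2 CPM with sgNTC18 and HIST2H2BE at 4.03, 4.66, 5.56 and 5.21 CPM, below every shPAX8 library of the line. HIST1H1C rose by 2.35 ± 0.12 and 0.91 ± 0.12 on the log2 scale, HIST2H2BE by 2.11 ± 0.12 and 0.90 ± 0.12, and HIST1H2AC by 1.81 ± 0.14 and 0.70 ± 0.15. Outside the list, HIST2H2AA3 and HIST2H2AA4 rose by 1.84 ± 0.14 and 1.07 ± 0.14. They were at 4.28, 4.45, 4.70 and 3.04 CPM each with sgNTC18, at 7.63 to 8.99 CPM with shPAX8-2 and at 12.3 to 16.3 CPM with shPAX8-1. The 3 ranges did not overlap.

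Among the members that fell, HIST2H2BF was at 13.7, 12.7, 10.7 and 11.3 CPM with sgNTC18 and at 7.30 to 9.47 CPM in the 8 shPAX8 libraries, with no overlap. It fell by 0.59 ± 0.12 with shPAX8-1 and by 0.46 ± 0.12 with shPAX8-2, the latter a call lost in one fit over all libraries (-0.46). HIST1H2AL, which passed the filter only through sgNTC18, was at 2.06, 2.34, 2.31 and 1.63 CPM with sgNTC18, at 0.420, 0.597, 0.480 and 0.256 CPM with shPAX8-2 and at 0.292, 0.159, 0.120 and 0.152 CPM with shPAX8-1. All shPAX8 libraries were below all sgNTC18 libraries, and the gene fell by 2.27 ± 0.30 with shPAX8-2 and by 3.55 ± 0.35 with shPAX8-1 on the log2 scale. HIST1H1D, the H1.3 gene, fell by 2.96 ± 0.43 with shPAX8-1 and by 1.30 ± 0.36 with shPAX8-2. HIST1H1B, the H1.5 gene, fell by 1.37 ± 0.30 and 0.93 ± 0.29, and HIST1H1E, the H1.4 gene, by 0.92 ± 0.26 and 0.80 ± 0.25, so that 3 of the 4 tested H1 genes fell and HIST1H1C rose. HIST1H1E lost its call with either hairpin when the GC trend was removed.

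Of the H3 genes, 9 of 11 tested were lower and 1 was higher with shPAX8-1, and 6 were lower and 0 higher with shPAX8-2. However, 6 of these 11 (HIST1H3A, HIST1H3F, HIST1H3G, HIST1H3J and the pair HIST2H3A and HIST2H3C) would not have passed the filter without sgNTC18. HIST2H3D, one of the other 5, an H3 gene of chromosome 1, was at 4.20, 4.22, 4.17 and 3.80 CPM with sgNTC18 and at 0.873 to 1.77 CPM in the 8 shPAX8 libraries, and fell by 1.71 ± 0.21 and 1.53 ± 0.21. Of the H4 genes, 3 of 7 were lower with shPAX8-1 and 2 with shPAX8-2, where 35.8% and 34.1% of all genes were lower. HIST1H4D, HIST1H4I, HIST1H4L and HIST4H4 would not have passed the filter without sgNTC18. HIST1H4H was higher with shPAX8-1 by 0.67 ± 0.29, a call lost in 10 alternatives at 0.47 to 0.69. Of these, 5 left out 1 library (sgNTC18 replicate 1 or 2, or shPAX8-1 replicate 1, 3 or 4). Of the H2B genes, 7 of 16 were lower and 4 higher with each hairpin, beside the same shares of all genes lower and 35.6% and 34.3% higher. The H2B genes that were higher were all on the polyadenylated list. HIST1H2BO fell by 1.69 ± 0.33 and 1.79 ± 0.33, HIST1H2BH by 1.84 ± 0.29 and 1.70 ± 0.28, and the H2A gene HIST1H2AM by 2.01 ± 0.28 and 1.76 ± 0.27.

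**Figure D3:**
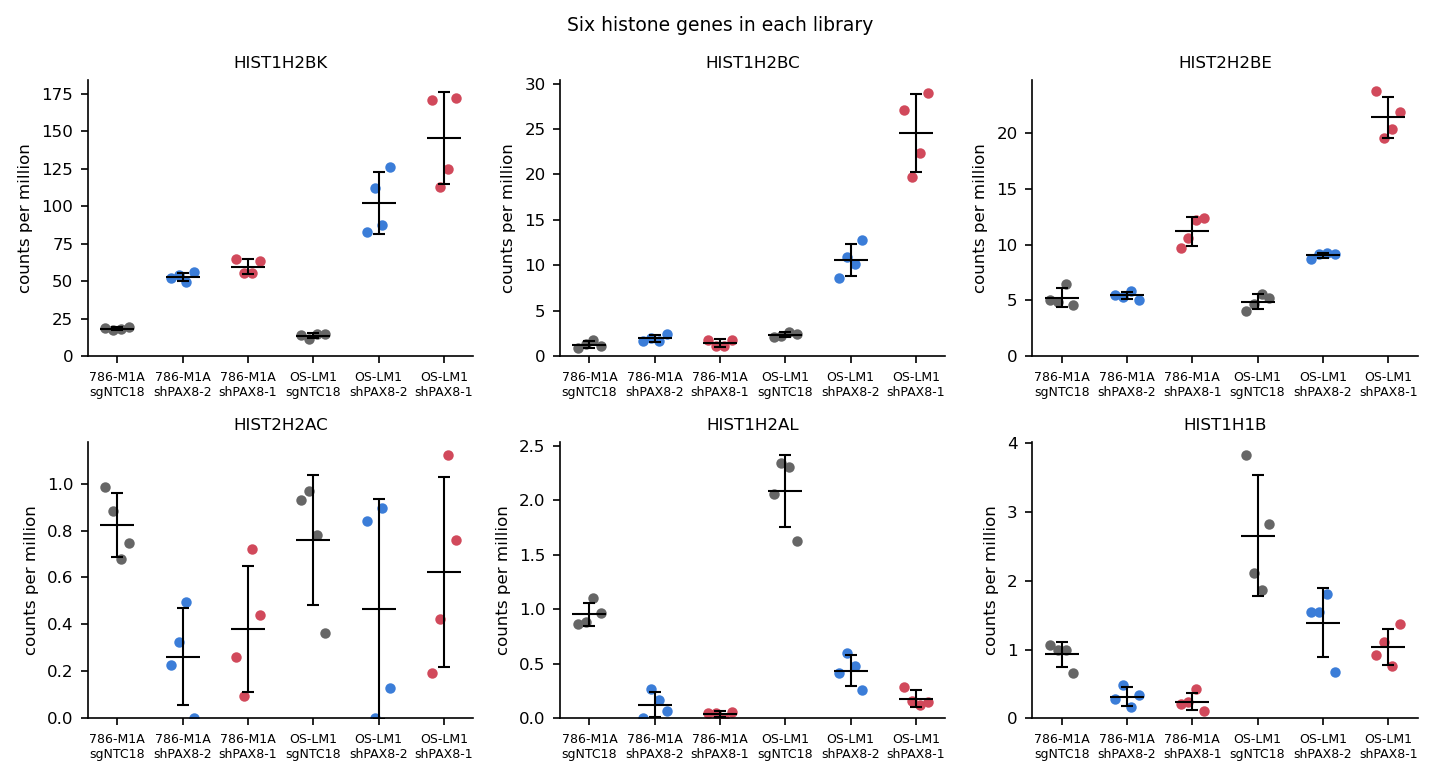
CPM of 6 histone genes in each of the 24 libraries, 1 point per library, with the mean and SD of 4 replicates in black; each panel has its own scale from 0. HIST1H2BK, HIST1H2BC and HIST2H2BE are highest in OS-LM1 with shPAX8-1, and HIST1H2AL and HIST1H1B are highest in OS-LM1 with sgNTC18.

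In 786-M1A, 11 of 26 tested members were higher and 4 lower with shPAX8-1 than with sgNTC18, where 36.1% of all genes were higher and 34.5% lower, 70.6% in either direction. With shPAX8-2, 10 were higher and 6 lower, where 31.5% and 30.9% of all genes were called, 62.5% in either direction. Without the sgNTC18 libraries 6 members would not have passed the filter, 2 of which (HIST1H2AM and HIST1H2BF) also needed the libraries of a hairpin. Of the 6, 3 were lower with shPAX8-1 and 5 with shPAX8-2, and of the other 20 members 1 was lower in each case. Without a filter beyond 1 count, 13 of 68 members were higher and 12 lower with shPAX8-1, and 11 and 13 with shPAX8-2. The split of member calls in this line thus depends on the filter, and the shares of all genes called without it are not given here. None of the 15 H4 genes passed the filter here, and 2 of 14 H3 genes did.

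Of the polyadenylated list, 5 of 7 were higher with shPAX8-1 and 4 with shPAX8-2, and 0 lower. HIST1H2BD changed most: it was at 2.67, 1.82, 2.10 and 1.67 CPM with sgNTC18, at 10.8, 12.4, 11.5 and 12.6 CPM with shPAX8-2 and at 13.3, 11.1, 14.0 and 17.7 CPM with shPAX8-1. The sgNTC18 libraries were below all 8 others, and the gene rose by 2.52 ± 0.18 and 2.77 ± 0.18 on the log2 scale (adjusted p = 2.4e-08 and 4.5e-09). HIST1H2BK was at 18.8, 17.2, 17.9 and 19.5 CPM with sgNTC18 and at 49.1 to 64.8 CPM in the shPAX8 libraries, and rose by 1.54 ± 0.10 with shPAX8-2 and by 1.72 ± 0.10 with shPAX8-1. HIST1H1C was at 8.01, 9.62, 10.0 and 9.31 CPM with sgNTC18 and at 17.6 to 29.3 CPM with shPAX8, and rose by 1.15 ± 0.14 and 1.39 ± 0.14. HIST1H2AC rose by 1.27 ± 0.22 with shPAX8-2 and by 0.87 ± 0.22 with shPAX8-1, the latter lost when the GC trend was removed (0.55). HIST1H2BC gave 0.62 ± 0.27 (adjusted p = 0.059) with shPAX8-2 and 0.21 ± 0.28 (adjusted p = 0.52) with shPAX8-1, and HIST2H2BE 0.06 ± 0.15 with shPAX8-2, none of them called, while HIST2H2BE rose by 1.10 ± 0.14 with shPAX8-1.

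Outside the list, HIST1H2AE, an H2A gene, rose by 2.11 ± 0.29 with shPAX8-1 and 1.62 ± 0.30 with shPAX8-2. It was at 0.332 to 1.01 CPM in the sgNTC18 libraries and at 1.71 to 3.76 CPM in the shPAX8 libraries, with no overlap. HIST1H2AK, which passed the filter only through shPAX8-2, where it was high, rose by 1.29 ± 0.46 and 1.88 ± 0.45 and its neighbour HIST1H2BN, which starts 193 bases away, by 1.57 ± 0.24 and 1.14 ± 0.24. HIST1H2AK lost its call with shPAX8-1 without sgNTC18 replicate 4 (1.09) or shPAX8-1 replicate 1 (0.83) and on shPAX8-1 replicates 3 and 4 alone (0.61). HIST2H2AA3 and HIST2H2AA4 rose by 1.02 ± 0.29 with shPAX8-1, a call lost on shPAX8-1 replicates 3 and 4 alone (0.49), and by 0.96 ± 0.29 with shPAX8-2.

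The largest fall in this line was again that of HIST1H2AL. This gene, HIST1H1B, HIST1H2BO and HIST2H2AC passed the filter only through sgNTC18, so that of the members named here only HIST1H1E fell without that selection. HIST1H2AL was at 0.863, 0.885, 1.10 and 0.966 CPM with sgNTC18 and at no more than 0.270 CPM with either hairpin, and 3 counts in all were left with shPAX8-1 against 93 with sgNTC18. The level with sgNTC18 was 24.2 times that with shPAX8-1 on summed counts, with a 95% interval from counting alone of 8.03 to 120. HIST1H1B fell by 1.90 ± 0.39 and 1.47 ± 0.38 and HIST1H1E by 1.09 ± 0.23, a call lost when the GC trend was removed (-0.54), and 1.24 ± 0.24. HIST1H2BO fell by 1.84 ± 0.47 with shPAX8-1 and by 1.18 ± 0.45 with shPAX8-2, where it lost the call without sgNTC18 replicate 2 (-1.10) or 3 (-1.13) or shPAX8-2 replicate 1 (-0.95), 2 (-1.18) or 3 (-1.19). HIST2H2AC, an H2A gene, fell by 1.64 ± 0.58 with shPAX8-2 and lost that call without sgNTC18 replicate 1 (-1.54) or shPAX8-2 replicate 1 (-1.58).

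**Figure D4:**
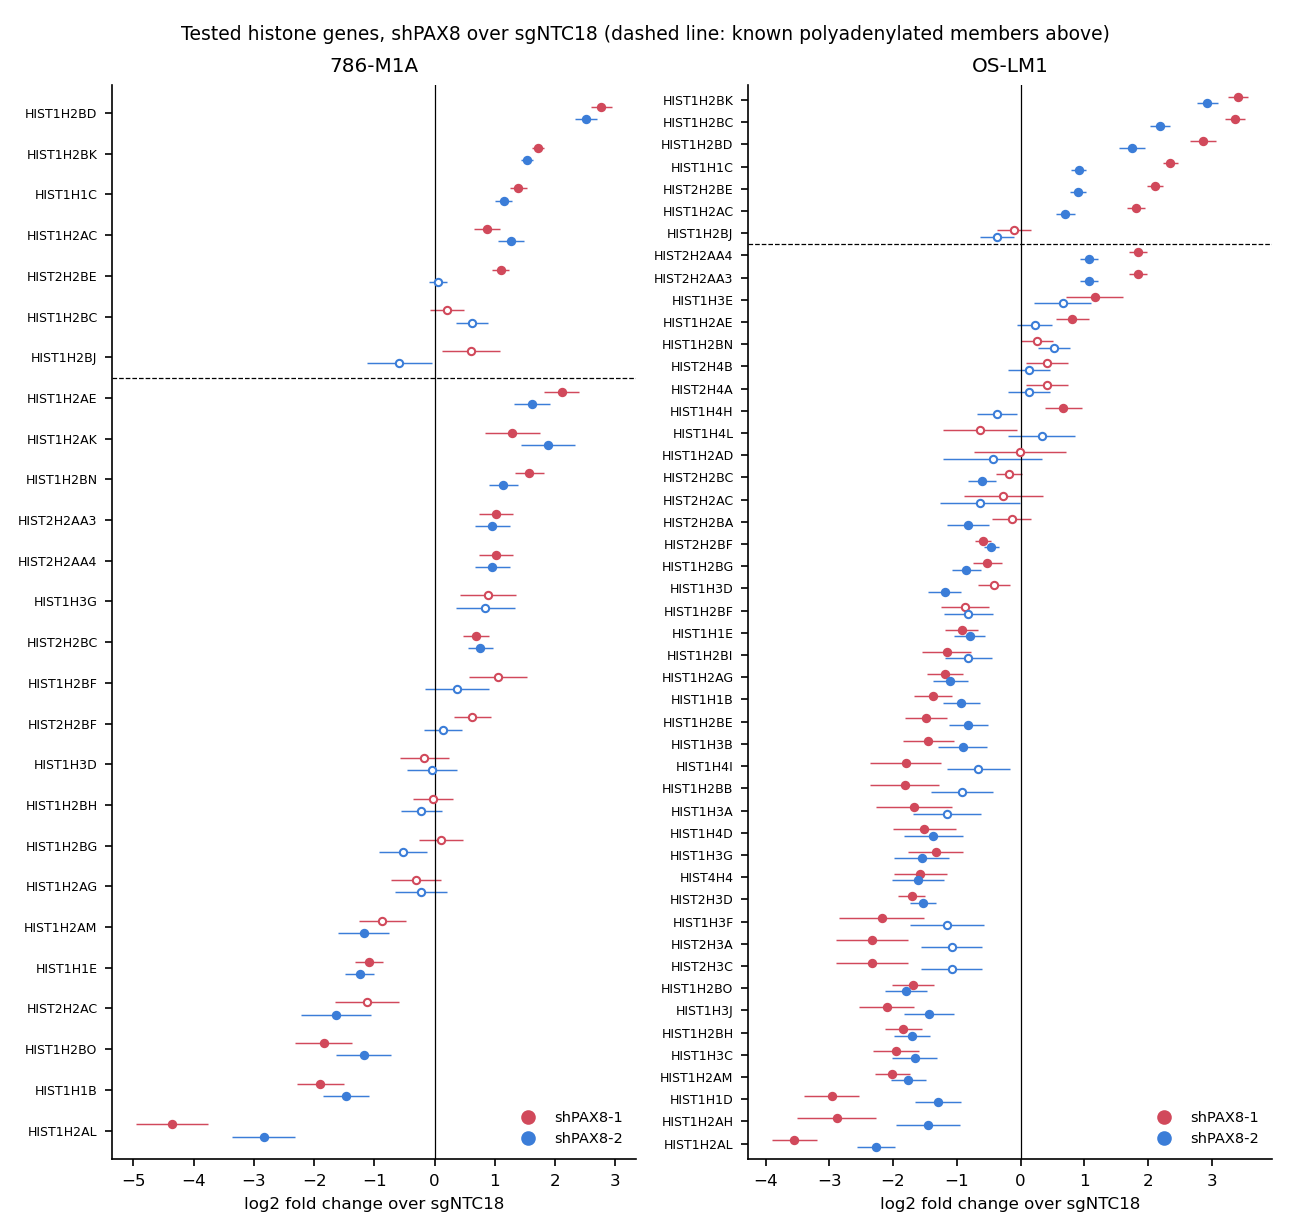
Log2 fold change of shPAX8-1 (red) and shPAX8-2 (blue) over sgNTC18 with its standard error for all members tested in 786-M1A (26 genes, left) and OS-LM1 (48 genes, right); filled points passed the test. The polyadenylated list lies above the dashed line and holds no filled point below 0, and most of the other members of OS-LM1 lie below 0.

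The rise of the polyadenylated list was larger in OS-LM1 for some genes. In the test of the difference, mean shPAX8 over sgNTC18 in OS-LM1 exceeded that in 786-M1A for 4 of 41 members and fell short for 9, where 29.9% and 28.8% of all genes were called, 58.7% in all. The 4 were HIST1H2BC (2.40 ± 0.26), HIST1H2BK (1.56 ± 0.17), HIST2H2BE (0.96 ± 0.16) and HIST1H1C (0.39 ± 0.16, adjusted p = 0.043, lost in 16 alternatives at 0.32 to 0.41, 14 of which left out 1 library), all on the list. The 9 included HIST1H3G (-2.28 ± 0.57) and the H2B gene HIST1H2BH (-1.60 ± 0.39), and HIST1H2BE, which had 1 count in all in 786-M1A with sgNTC18.

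Between the lines, the sgNTC18 libraries of OS-LM1 held more histone reads: 27 of 41 tested members were higher than in 786-M1A and 1 was lower, where 32.0% and 31.0% of all genes were called, 63.0% in either direction. Of the 34 tested outside the polyadenylated list, 25 were higher and 0 lower. The filter over all 24 libraries kept some members, such as HIST1H2AH and HIST1H3J, only because they were high in OS-LM1 with sgNTC18. For such members a higher level in that group was selected for, which also bears on the members that fell short in the test above. Their number was not counted. HIST2H3D was at 0.259 to 0.442 CPM in 786-M1A and at 3.80 to 4.22 CPM in OS-LM1, a log2 fold change of 3.54 ± 0.31. The pseudogene HIST2H2BA had no count with sgNTC18 in 786-M1A and 179 in OS-LM1, so it was at least 41.3-fold higher there, with the floor of 3 counts taken over the group. HIST1H2BE had 1 count against 176, a ratio of 122 with a 95% counting interval of 21.6 to 4840. The lower gene was HIST1H2BK (-0.45 ± 0.14), which lost the call when the GC trend was removed (-0.20).

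With shPAX8, 27 of the 41 were higher in OS-LM1 and 3 lower, where 41.7% and 41.5% of all genes were called, 83.1% in either direction. HIST1H2BC (3.26 ± 0.14) and HIST1H3C (2.43 ± 0.48), an H3 gene, were among those that were higher. The 3 that were lower were HIST1H2AK (-1.60 ± 0.32), HIST2H2BC (-1.36 ± 0.15) and HIST1H2BN (-0.93 ± 0.17). HIST1H2BK, lower in OS-LM1 with sgNTC18, was higher there with shPAX8 (1.12 ± 0.10).

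Many H2A and H2B genes lie head to head and share a short region between their starts, and the pairs are set side by side here. An octamer, ATTTGCAT on either strand, was found in the promoter window (250 bases before to 50 after the start, RefSeq, GRCh38.p14) of 14 of 18 H2B and 11 of 16 H2A genes, 1 of 12 H3 genes and none of the H1 and H4 genes, against 1.8% of all 27305 promoters. CCAAT, again on either strand, was found in 55 of 65 members and 35.7% of all promoters, and the members without it were 10 of the 13 H4 genes. TATAAA on either strand was found in 43 of 65 members and in 3264 of all promoters. The octamer windows below are shown because the first 4 lines hold a pair of sites that are each shared by divergent genes. Each is given on the strand of the gene named, with 8 bases on either side and the octamer in capitals.
HIST1H2BC, chr6:26124034-26124057, minus strand: catacctcATTTGCATagctctgc
HIST1H2AC, chr6:26124034-26124057, plus strand: gcagagctATGCAAATgaggtatg
HIST2H2BE, chr1:149886713-149886736, minus strand: gagccctaATTTGCATaaggtggt
HIST2H2AC, chr1:149886713-149886736, plus strand: accaccttATGCAAATtagggctc
HIST1H2BK, chr6:27146889-27146912, minus strand: ttcaccttATTTGCATgagaggtc

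HIST1H2BC and HIST1H2AC, which share the first site, both rose over sgNTC18 in OS-LM1, by 3.36 and 1.81 on the log2 scale with shPAX8-1. HIST2H2BE and HIST2H2AC, whose starts are 235 bases apart and share the second, did not move together: in OS-LM1 with shPAX8-1 they gave 2.11 ± 0.12 and -0.27 ± 0.62, the latter not called. In 786-M1A with shPAX8-1 they gave 1.10 ± 0.14 and -1.12 ± 0.53, the latter with an adjusted p of 0.069. HIST2H2AC passed the filter of that line only through sgNTC18, so that its lower value there was selected for. HIST1H2BK and HIST1H2AH, 247 bases apart in an orientation not checked here, gave 3.41 ± 0.16 and -2.88 ± 0.62 in OS-LM1 with shPAX8-1. HIST1H2AH, an H2A gene, had 82 counts in all with sgNTC18 and 7 with shPAX8-1, and passed the filter only through sgNTC18, so that its fall was selected for. HIST1H2BG and HIST1H2AE, 232 bases apart, gave -0.85 ± 0.23 and 0.22 ± 0.27 with shPAX8-2 in that line and -0.52 ± 0.23 and 0.81 ± 0.26 with shPAX8-1. The last 2 lost their calls in some alternatives, HIST1H2BG in 12 (-0.58 to -0.37) and HIST1H2AE without shPAX8-1 replicate 1 (0.60). HIST1H2AM and HIST1H2BO, 239 bases apart, fell together in OS-LM1.

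The genes that read, process or accompany histone mRNA were compared as lists. Of all genes tested, 35.6% were higher and 35.8% lower with shPAX8-1 than with sgNTC18 in OS-LM1, and 34.3% and 34.1% with shPAX8-2. In 786-M1A these shares were 36.1% and 34.5% with shPAX8-1, and 31.5% and 30.9% with shPAX8-2. The counts of every list over sgNTC18 below stand beside these shares. Of 41 genes of DNA replication, 41 were lower with either hairpin than with sgNTC18 in OS-LM1, and 36 in 786-M1A. Their median log2 fold change was -2.04 and -1.39 in OS-LM1 with shPAX8-1 and shPAX8-2, and -1.65 and -0.98 in 786-M1A. In 786-M1A they included MCM3, a subunit of the replicative helicase (-3.42 with shPAX8-1), and in OS-LM1 CDT1, a licensing factor (-3.44 with shPAX8-1). Between the hairpins, 35 of 41 were lower with shPAX8-1 in OS-LM1, with a median of -0.60, and 26 were lower and 3 higher in 786-M1A, with the same median. Of all genes tested between the hairpins, 16.7% were lower and 12.4% higher in OS-LM1, and 22.9% and 24.2% in 786-M1A. In OS-LM1, 6 of 7 genes of the polyadenylated list were higher with shPAX8-1 in that comparison.

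Of 26 genes of histone transcription and mRNA processing, 15 were lower and 3 higher with shPAX8-1 than with sgNTC18 in OS-LM1 and 13 and 7 in 786-M1A. With shPAX8-2, 15 were lower and 7 higher in OS-LM1 and 14 and 4 in 786-M1A. SLBP averaged 127 ± 14.9 CPM with sgNTC18, 80.2 ± 9.34 with shPAX8-2 and 72.1 ± 3.19 with shPAX8-1 in OS-LM1, and 203 ± 7.11, 107 ± 9.80 and 114 ± 13.8 CPM in 786-M1A. It fell by 0.84 ± 0.10 and 0.66 ± 0.10 on the log2 scale with shPAX8-1 and shPAX8-2 in OS-LM1 and by 0.81 ± 0.10 and 0.90 ± 0.10 in 786-M1A, and was not called between the hairpins. NPAT, the coactivator of histone gene transcription, rose in 786-M1A with both (0.93 ± 0.16 and 1.06 ± 0.16) and in OS-LM1 with shPAX8-2 (0.61 ± 0.11), and gave 0.11 ± 0.11 with shPAX8-1. CCNE2, a cyclin of the G1/S transition, fell by 0.99 ± 0.16 with shPAX8-1 in OS-LM1 and by 1.57 ± 0.26 in 786-M1A, and was lower with shPAX8-1 than with shPAX8-2 in both lines (-0.74 ± 0.16 and -0.94 ± 0.26). E2F1 and E2F2, activators of S-phase genes, were among the 3 genes of the list that changed most with shPAX8-1 in both lines.

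Of 10 tested replacement histones, which can be made outside S phase from polyadenylated mRNAs, 8 were lower and 1 higher with shPAX8-1 and 8 and 0 with shPAX8-2 in OS-LM1, and 8 and 2, and 7 and 2, in 786-M1A. H3F3C, an H3.3-like gene, had the largest change of the list in 786-M1A (3.58 ± 1.11 with shPAX8-1 and 4.49 ± 1.09 with shPAX8-2), where its level varied widely (0.399 ± 0.49 CPM with sgNTC18, 4.68 ± 4.87 with shPAX8-1 and 8.90 ± 7.24 with shPAX8-2). H3F3A, an H3.3 gene of the list, was at 0 CPM in every group, and how reads were assigned among the H3.3 genes was not tested. H2AFX fell by 2.77 ± 0.11 and 2.55 ± 0.11 in OS-LM1 and H2AFZ by 1.57 ± 0.09 and 1.46 ± 0.09. H1F0, a linker histone that accumulates in cells that leave the cycle, was higher with shPAX8-1 in OS-LM1 (0.71 ± 0.08) and gave -0.11 ± 0.08 with shPAX8-2. Against each other, the hairpins differed by 0.81 ± 0.08 for H1F0 and by 0.95 ± 0.11 for H2AFJ in that line, both higher with shPAX8-1. Of 16 histone chaperones, 9 were lower and 3 higher with shPAX8-1 and 8 and 3 with shPAX8-2 in OS-LM1, and 10 and 2, and 9 and 1, in 786-M1A. CHAF1A, a subunit of the chromatin assembly factor that works at the replication fork, fell by 1.95 with shPAX8-1 and by 1.37 with shPAX8-2 in OS-LM1.

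**Figure D5:**
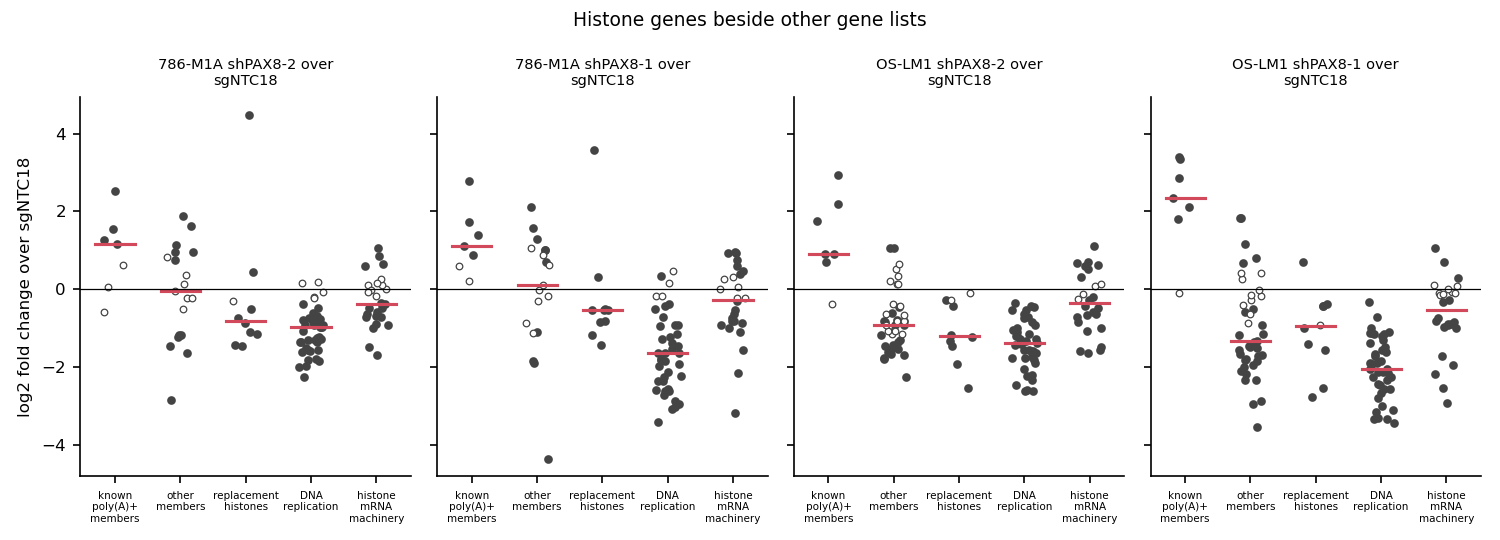
Log2 fold change over sgNTC18 of each tested gene in 5 lists, 1 panel per comparison, with filled points passing the test and the list median as a red line. The median of the polyadenylated list is above 0 in all 4 panels and those of the replacement histones and DNA replication genes are below 0.

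RNAs without a poly(A) tail other than histone mRNAs were also counted. RNA18S5, the 18S ribosomal RNA, which has no poly(A) tail, was at 44000 to 51500 CPM with sgNTC18, 15500 to 20000 with shPAX8-2 and 11700 to 15900 with shPAX8-1 in 786-M1A. In OS-LM1 it was at 62500 to 80600, 26800 to 71000 and 25300 to 34500 CPM. It was thus lower with shPAX8 than with sgNTC18 in every library of 786-M1A, while in OS-LM1 the ranges of sgNTC18 and shPAX8-2 overlapped. A further 495 genes for RNAs without a tail, mostly small nucleolar RNAs, summed to 108 to 169, 166 to 215 and 132 to 222 CPM in 786-M1A and to 172 to 264, 203 to 591 and 107 to 405 CPM in OS-LM1, in the same order of groups, with overlapping ranges between most groups of a line. Of the 49 tested in OS-LM1, 11 were higher and 15 lower with shPAX8-1 than with sgNTC18, where 35.6% of all genes were higher and 35.8% lower. With shPAX8-2, 15 were higher and 9 lower, where 34.3% and 34.1% of all genes were called. The part of these differences in the level of the untailed histone transcripts was not tested. A gene's tailed and untailed transcripts cannot be told apart in counts per gene.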

How the data were processed

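The authors mapped reads to hg38 and deposited RSEM gene tables for each of the 24 libraries, with Bowtie2 named in the submitters' processing notes. The deposited expected counts are unnormalized, and the deposited TPM values are scaled to transcript length and library size. The labels name a stranded KAPA mRNA kit and the paper's methods Lexogen kits, and whether counting used strand is not given in the sources used here. Annotation release and RSEM version are not given there either.

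For the present work the values were rounded to whole counts. In edgeR 4.0.16 (R 4.3.3), genes passed filterByExpr with a minimum count of 10, TMM gave the scaling, and a robust quasi-likelihood fit gave each test, with Benjamini-Hochberg adjustment over all genes tested and a threshold of 0.05. The fit of each line held its 12 libraries, and the fit across lines all 24. CPM used TMM sizes over all 24 libraries. Standard errors are the log2 fold change over the root of the F statistic. Genes were given from a rule: the 5 members with the highest mean CPM, the 3 highest and 3 lowest called in each comparison, the polyadenylated list, members at 0 or in equal pairs, SLBP, NPAT, CCNE2, PAX8 and the 3 largest changes called in each other list; further members that complete a class or pair were chosen after their values were seen. The members and lists were chosen with earlier results of these data known, and the polyadenylated list was written by hand from general knowledge of these genes.

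The alternatives were DESeq2 size factors, DESeq2 1.42.0, no filter beyond 1 count, each library left out, the replicate number as a block, removal of the GC trend (spline, 5 degrees of freedom), another choice of libraries in the fit, and leaving out the polyadenylated list. The fits on 2 of the 4 shPAX8-1 libraries of 786-M1A were chosen once the data had been seen. The procedure was tested on simulated data. All replicate pairs differed by more than sampling noise. Sequences were read from hg38 and RefSeq (GRCh38.p14), and HIST1H2AH, HIST1H2APS1, HIST1H3I, HIST1H3J, HIST1H4A, HIST1H4C, HIST2H2BA and HIST2H2BC had no entry in the promoter table.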

Additional observations from a re-analysis of the deposited data

Results flagged for a closer look

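In a check of 60 groups of 4 libraries for a value far from the others, 1 was found, where chance gives about 1 in 20. HIST2H2AA3 was at 7.63 CPM in OS-LM1 shPAX8-2 replicate 1 and at 8.77 to 8.99 CPM in the other 3 replicates.

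The difference between the hairpins was larger in OS-LM1 than in 786-M1A for HIST1H1C (1.24 on the log2 scale), HIST1H2BD (0.89), HIST1H2AC (1.54) and HIST1H2BC (1.63), by the interaction term of the fit over all libraries. Of all genes, 12.7% were called in that direction. In 786-M1A the difference for HIST1H2AC and HIST1H2BC was below 0 and not called.

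The difference between shPAX8 and sgNTC18 was larger in OS-LM1 than in 786-M1A for HIST1H2BK (1.56), HIST1H1C (0.39), HIST2H2BE (0.96) and HIST1H2BC (2.40), by the same kind of test. Of all genes, 29.9% were called in that direction. The value of HIST1H1C lost its call in 16 alternatives. The causes were not tested.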

How the results depend on the processing

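Every fold change of a called member kept its direction in every alternative run. Of 188 calls of a member in a comparison, 135 passed the test in every alternative, among them 38 of 45 on the polyadenylated list. The shares of all genes called in the alternatives are not given here. The number of members called was within 1.5 times its value in 183 of 195 fits. For 786-M1A shPAX8-1 against sgNTC18 it went from 15 to 25 without a filter and also in one fit over all libraries. For 786-M1A shPAX8-1 against shPAX8-2 it went from 1 to 7 with the GC trend removed, 8 with the GC trend removed and the replicate block, 4 in one fit over all libraries, 2 on shPAX8-1 replicates 1 and 2 alone, 5 on replicates 3 and 4 alone, and 0 without the polyadenylated list. Without that list, OS-LM1 shPAX8-1 against shPAX8-2 had 6 calls in place of 12, and the interaction of the hairpins 2 in place of 6. Leaving out each library in turn gave 1 to 4 calls for the hairpins in 786-M1A, 8 to 13 in OS-LM1 and 4 to 8 for the interaction. Summed CPM without the list was 31.0, 38.8 and 36.4 in 786-M1A with sgNTC18, shPAX8-1 and shPAX8-2, and 75.7, 68.4 and 54.7 in OS-LM1. The cause was not tested except where fewer genes were counted by construction.

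Same-numbered replicates did not deviate together over the series as a whole: over 24 pairs, correlations ran from -0.326 to 0.318, 7 were over 0.1, and 5 of 24 libraries correlated best with their own number. Between shPAX8-2 and shPAX8-1 of 786-M1A, however, replicates 1, 2, 3 and 4 gave 0.228, 0.166, 0.318 and 0.045. Different numbers of these groups gave as much as 0.345 (shPAX8-2 replicate 3 with shPAX8-1 replicate 4) and -0.401 (3 with 1). With the replicate block alone, 15, 15, 36 and 30 members were called against sgNTC18 (786-M1A shPAX8-1 and shPAX8-2, then OS-LM1), 1 and 11 between the hairpins (786-M1A, then OS-LM1), 19 and 23 between the lines (sgNTC18, then shPAX8), and 4 and 13 in the interactions of hairpins and of depletion. Depth limits the test of most members, since 47 of 73 were not tested in 786-M1A and 25 in OS-LM1.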
